A study of Mus musculus with 5 samples.

Results

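Lef1, Tcf7, S1pr1, Klf2 and Il7r are genes that naive and recirculating T cells use, and they were described here in T cells sorted from the brain after a stroke. They were taken by symbol, 5 of the 2926 mouse genes in the deposited table, and all 5 were found. The table held 692 cells, of which 345 were kept as T cells because the mean score of 7 T cell markers (Cd3e, Cd3d, Cd3g, Cd2, Lck, Cd247 and Thy1) was above 0. All mice were wildtype C57BL/6 and were given a photothrombotic stroke, in which light on the skull activates a circulating dye and clots the vessels of the cortex beneath. For the trained mice running wheels were provided from day 2 on, and for the untrained mice none were. Cells came from the injured hemisphere at day 14, were spun through 37% Percoll, sorted 1 per well by CD45 and CD3 staining into 384-well plates and read by SORT-seq, which gives each well its own barcode. There were 3 trained and 2 untrained samples. Age and sex are not in the labels used here, nor is it said whether samples came from separate animals, so p-values measure the spread between these samples, which may be technical.

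Naive T cells circulate between blood and lymphoid organs until they meet antigen, and T cells that settle in a tissue shut part of that programme down. Lef1 and Tcf7 encode HMG-box transcription factors that act with beta-catenin and keep naive and memory precursor T cells in that state. Klf2 encodes a zinc finger transcription factor that keeps T cells quiescent and activates S1pr1. S1pr1 encodes the receptor for sphingosine 1-phosphate, the lipid that T cells follow out of lymphoid organs and tissues. Il7r encodes the alpha chain of the receptor for interleukin 7, a survival signal of resting T cells. In the deposited table the genes lie on chromosome 3 (Lef1 and S1pr1), chromosome 11 (Tcf7), chromosome 8 (Klf2) and chromosome 15 (Il7r).

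Promoters are shown for Klf2 and Il7r, the genes whose correlation with S1pr1 across single T cells was above 0 in every sample. They are from RefSeq on GRCm38.p6, whose promoter table held 4 of the 5 genes, and give the 250 bases before the annotated start, read 5′ to 3′ on the strand of the gene. The Klf2 stretch is chr8:72318812-72319061 on the plus strand, with capitals for 2 GC boxes (GGGGCGGGG) and, between them and the start, for a MEF2-type site. The Il7r stretch is chr15:9529877-9530126 on the minus strand and has no capitals because no searched motif was found.
Klf2: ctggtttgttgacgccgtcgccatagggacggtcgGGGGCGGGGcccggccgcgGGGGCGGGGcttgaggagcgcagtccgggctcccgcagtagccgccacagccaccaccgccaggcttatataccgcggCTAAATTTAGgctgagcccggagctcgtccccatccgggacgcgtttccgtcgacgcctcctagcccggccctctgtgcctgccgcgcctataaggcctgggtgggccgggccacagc
Il7r: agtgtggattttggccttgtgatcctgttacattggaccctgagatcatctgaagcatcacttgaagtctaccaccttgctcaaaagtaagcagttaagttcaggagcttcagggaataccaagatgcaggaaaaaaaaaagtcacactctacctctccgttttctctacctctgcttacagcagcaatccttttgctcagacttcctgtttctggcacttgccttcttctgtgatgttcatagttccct
Motifs were searched on both strands of 32851 promoter stretches of 250 bases. The MEF2-type site stood 118 bases before the Klf2 start and was found in 0.0396% of all stretches. The GC box was in 10.4%, and the pair before Klf2 began 215 and 196 bases before its start. A FOXO-type site (GTAAACA, in 3.17% of all stretches) and a TCF/LEF-type site (CTTTGAT, in 3.21%) were in none of the stretches of Lef1, Tcf7, Klf2 and Il7r. The match of a motif is a description of the letters, not of binding.

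The deposited values are scores with no unit, below 0 in 72.7% of entries and between -2.12 and 3.74, so no counts, depth or detection limit could be given. Their form may be that of integrated data, which no label states, so what is given are differences in score and not in expression, and levels were not compared between genes. Untrained sample 2 stood apart: 1632 of the 2967 rows of the table, which include 41 spike-ins, had a mean of 0 there (within 1e-06), against 0 rows in each other sample. The median SD between cells was 0.728 in it, against 0.370 to 0.515 in the others. Its highest T cell score was 2.517 for each of Tcf7, S1pr1, Klf2 and Il7r, and 2.568 for Lef1. Several cells shared each of these values exactly, as under a ceiling. The effect of this on the means, SD and correlations of that sample was not tested. T cells numbered 37, 70 and 90 in trained samples 1, 2 and 3, and 78 and 70 in untrained samples 1 and 2. A marker score is a range and not a type: 125 of the T cells scored between 0 and 0.25, and 117 other cells between -0.25 and 0. Of the T cells, 97 also had a mean score of 7 myeloid markers above 0, namely 11, 16 and 38 in trained samples and 32 and 0 in untrained samples. None of the B cell, neutrophil, neuron, astrocyte or endothelial markers listed was among the measured genes. Of the well names, 221 of 331 recurred between samples, and 0 cells shared their values.

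T cells lay above the remaining sorted cells in each of the 5 genes and each of the 5 samples. Averaged over samples, the difference in score was 0.213 for Lef1, 0.511 for Tcf7, 0.384 for S1pr1, 0.417 for Klf2 and 0.470 for Il7r. Over all genes the median difference was 0.204, and 79.1% of genes were higher in T cells in 5 of 5 samples, a direction shared with most genes. Ribosomal protein genes moved the same way, with mean scores of 0.345 to 0.598 in T cells and of -0.380 to -0.242 in the remaining cells. Mbp, the 1 measured oligodendrocyte marker of 4 listed, had mean scores of 0.163 to 0.354 in T cells and of -0.258 to -0.177 in the remaining cells. The mean over all genes was 0.065 to 0.123 in T cells and -0.148 to -0.105 in the remaining cells. Spike-ins went the other way in each of the 5 samples, with mean scores of -0.063 to 0.034 in T cells and of 0.031 to 0.141 in the remaining cells. The marker gate may thus also follow the RNA content of a well. The part of any of these in the difference was not tested.

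**Figure D1:**
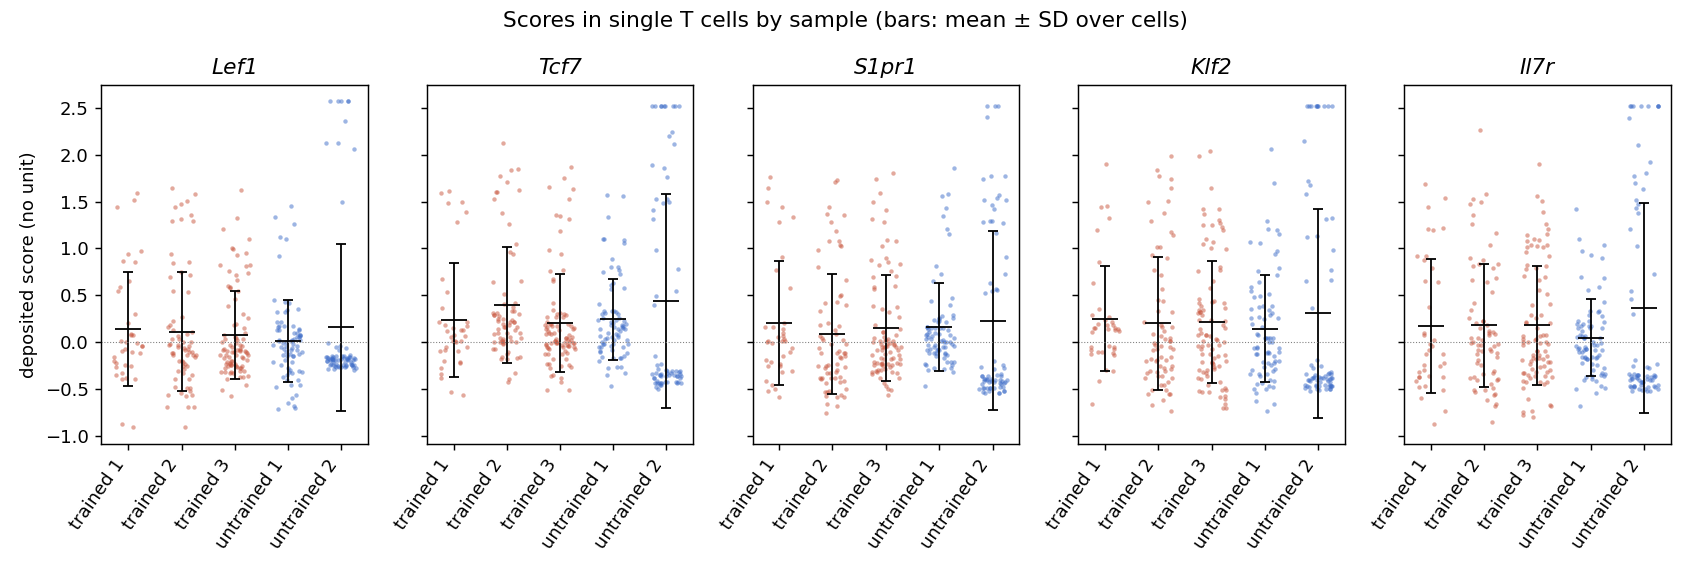
Each point is 1 T cell, placed by its deposited score (no unit) in its sample, with 1 panel for each gene, and bars give the mean and SD over cells. In untrained sample 2 most cells lie in a narrow band below 0 and the rest spread up to higher scores than in the other 4 samples. Several of these share the same top score, 2.517 for Tcf7, S1pr1, Klf2 and Il7r and 2.568 for Lef1.

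Tcf7 averaged 0.242, 0.397 and 0.209 in T cells of trained samples and 0.244 and 0.438 in those of untrained samples. Untrained sample 2 was highest and trained sample 3 lowest, and the groups overlapped. Lef1 averaged 0.145, 0.116 and 0.083 in trained samples and 0.016 and 0.163 in untrained samples. The untrained samples were the lowest and the highest of the 5, with all trained samples between them. Neither transcription factor passed the test for training. The limma difference, trained minus untrained, was -0.058 for Tcf7 (95% interval -0.231 to 0.115, adjusted p = 0.998) and 0.025 for Lef1 (-0.099 to 0.150, adjusted p = 0.998).

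Klf2 averaged 0.253, 0.202 and 0.220 in trained samples and 0.147 and 0.309 in untrained samples, so trained samples again lay inside the range of the untrained ones. Its difference was -0.003 (95% limma interval -0.131 to 0.125, adjusted p = 0.999). S1pr1, the egress receptor, averaged 0.208, 0.092 and 0.154 in trained samples and 0.167 and 0.231 in untrained samples. The groups overlapped, with trained sample 2 lowest, and the difference was -0.048 (-0.163 to 0.067, adjusted p = 0.998). Il7r averaged 0.175, 0.181 and 0.182 in trained samples and 0.051 and 0.364 in untrained samples. The 3 trained samples lay close together (mean 0.179 ± 0.003, SD, n = 3) and the untrained ones far apart (0.207 ± 0.222, SD, n = 2), on either side of them. The Il7r difference was -0.028 (-0.217 to 0.160, adjusted p = 0.998 by limma).

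None of the 5 genes passed limma at an adjusted p of 0.05 for training in T cells, and none had an unadjusted p below 0.05. Of all 2926 genes 0 passed, and 50 (1.71%) had an unadjusted p below 0.05. The groups overlapped for all 5 genes, as for all but 14.8% of genes. With the T cells that scored above 0 for myeloid markers left out, 0 genes passed as well and 88 had an unadjusted p below 0.05 in limma. Leaving out untrained sample 1, which left the untrained group with sample 2 alone, gave 145 genes past the threshold, none of them among the 5. Il7r came nearest then, at -0.185 (adjusted p = 0.0574), and without untrained sample 2 its difference was 0.128 (adjusted p = 0.997). Its sign thus turned with the untrained sample left out.

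The pathways around the 5 genes gave no training call in T cells. Among 10 measured genes of naive and memory transcription, 11 of egress and lymph node homing, 12 of interleukin 7 signalling and survival, 10 of the resting surface and 17 of residency and effector function, 0 passed in either direction. The median differences were -0.020, -0.057, -0.018, -0.054 and -0.042 in that order, against -0.012 over all genes and -0.028 over the 5 genes. Il2rg, the common gamma chain that pairs with Il7r, had -0.231 ± 0.103 (SE, adjusted p = 0.998 by limma), with no overlap between groups. S100a6, a calcium-binding protein gene of effector cells, had -0.263 ± 0.081 (SE, adjusted p = 0.998 by limma) and also no overlap. So did Icos of the same list, at -0.078 ± 0.045 (SE, adjusted p = 0.998 by limma). Over all genes 14.8% had no overlap between groups.

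The share of T cells with a score above 0 was likewise compared. A score above 0 is a range and not a detected transcript. For Tcf7 it was 64.9% (95% Wilson interval 48.8 to 78.2), 80.0% (69.2 to 87.7) and 60.0% (49.7 to 69.5) of T cells in trained samples, against 69.2% (58.3 to 78.4) and 37.1% (26.8 to 48.9) in untrained samples. For Klf2 it was 62.2%, 47.1% and 55.6% in trained samples, against 51.3% and 32.9% in untrained samples. Untrained sample 2 had the lowest share for each of the 5 genes, down to 14.3% for Lef1 (7.9 to 24.3), although it had the highest mean score for each: fewer cells scored above 0 there, and 10 to 21 of its 70 T cells scored above 1. Intervals cover counting error only. By two-sided exact permutation over 10 splits, where 0.1 is the smallest possible p, the trained minus untrained difference was 15.1 percentage points for Tcf7 (p = 0.5), 10.9 for Lef1 (p = 0.6), 12.9 for Klf2 (p = 0.3), 7.7 for Il7r (p = 0.3) and -0.2 for S1pr1 (p = 1.0). This design could not reach 0.05.

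Of the 345 T cells, 45.2% scored above 0 for 3 or more of the 5 genes, 25 for none and 19 for all 5. By sample the share with 3 or more was 54.1%, 50.0% and 43.3% in trained samples and 57.7% and 24.3% in untrained samples. The trained samples lay between the untrained ones (two-sided exact permutation p = 0.7).

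**Figure D2:**
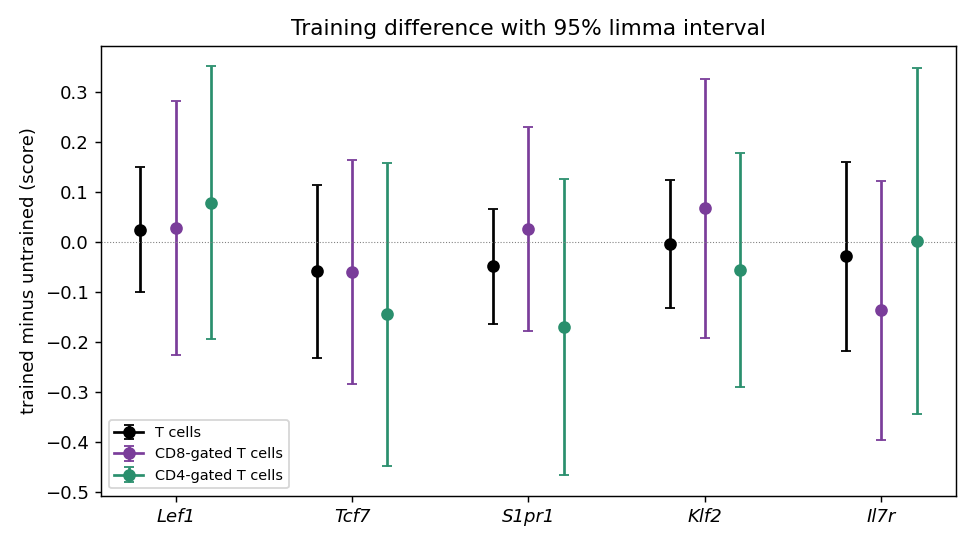
Points give the trained minus untrained difference in mean score (no unit) of each gene in all T cells, CD8-gated T cells and CD4-gated T cells, and bars give the 95% limma interval. All 15 intervals cross 0.

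T cells were divided by coreceptor. Those called CD8-gated averaged above 0 over Cd8a and Cd8b1 and scored 0 or less for Cd4; for those called CD4-gated the conditions were swapped. There were 108 CD8-gated cells (13, 26 and 29 in trained samples, 22 and 18 in untrained samples) and 93 CD4-gated cells (11, 25 and 16 in trained samples, 23 and 18 in untrained samples). A further 51 T cells lay above both gates and 93 below both. Median scores were 0.879 for Cd8a in CD8-gated cells and 0.879 for Cd4 in CD4-gated cells. Cd3e had medians of 0.453 (CD8-gated) and 0.288 (CD4-gated).

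Il7r was lower in CD8-gated than in CD4-gated cells of every sample, without passing the test. Its mean score was -0.130, 0.096 and 0.149 in CD8-gated cells of trained samples, against 0.660, 0.188 and 0.301 in CD4-gated cells of the same samples. In untrained samples it was 0.011 and 0.337 in CD8-gated cells, against 0.191 and 0.571 in CD4-gated cells. In these 5 samples the differences ran from -0.091 in trained sample 2 to -0.790 in trained sample 1. Within the set of 5 samples the CD8-gated and CD4-gated values overlapped, and the order held inside each sample. The limma difference with sample as a block was -0.289 ± 0.095 (SE, 95% interval -0.493 to -0.086). Its unadjusted p was 0.00885 in limma, but it did not pass after adjustment over 2923 genes (adjusted p = 0.187). A lower value in all 5 samples was seen for 7.66% of genes. Across the other settings and left-out samples Il7r stayed lower in CD8-gated cells, with adjusted p from 0.124 to 0.4. Without trained sample 1 the difference was -0.164 (adjusted p = 0.285 in limma).

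S1pr1 lay lower in CD8-gated cells in 4 of 5 samples. Its mean was 0.200, 0.109 and 0.062 in CD8-gated cells of trained samples, against 0.098, 0.204 and 0.438 in CD4-gated cells of the same samples. In untrained samples it was 0.134 and 0.061 in CD8-gated cells, against 0.255 and 0.577 in CD4-gated cells. Trained sample 1, with the fewest cells, went the other way. The limma difference was -0.201 ± 0.088 (SE, 95% interval -0.390 to -0.012), with an unadjusted p of 0.0387 and an adjusted p of 0.322, so it did not pass. Without untrained sample 2 it was -0.122 (adjusted p = 0.574 in limma). Without trained sample 1 it was -0.277 (adjusted p = 0.152 in limma).

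The transcription factors had no common direction between the gates. Lef1 averaged 0.077 ± 0.149 in CD8-gated cells and -0.002 ± 0.146 in CD4-gated cells (SD, n = 5 samples each), a limma difference of 0.080 (95% interval -0.116 to 0.275, adjusted p = 0.738). Tcf7 averaged 0.361 ± 0.106 in CD8-gated cells and 0.376 ± 0.192 in CD4-gated cells (SD, n = 5 each), a limma difference of -0.015 (-0.168 to 0.139, adjusted p = 0.95). Klf2 averaged 0.192 ± 0.160 in CD8-gated cells and 0.182 ± 0.088 in CD4-gated cells (SD, n = 5 each), a limma difference of 0.009 (-0.177 to 0.196, adjusted p = 0.982). Each of the 3 genes was lower in CD8-gated cells in 2 of 5 samples.

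**Figure D3:**
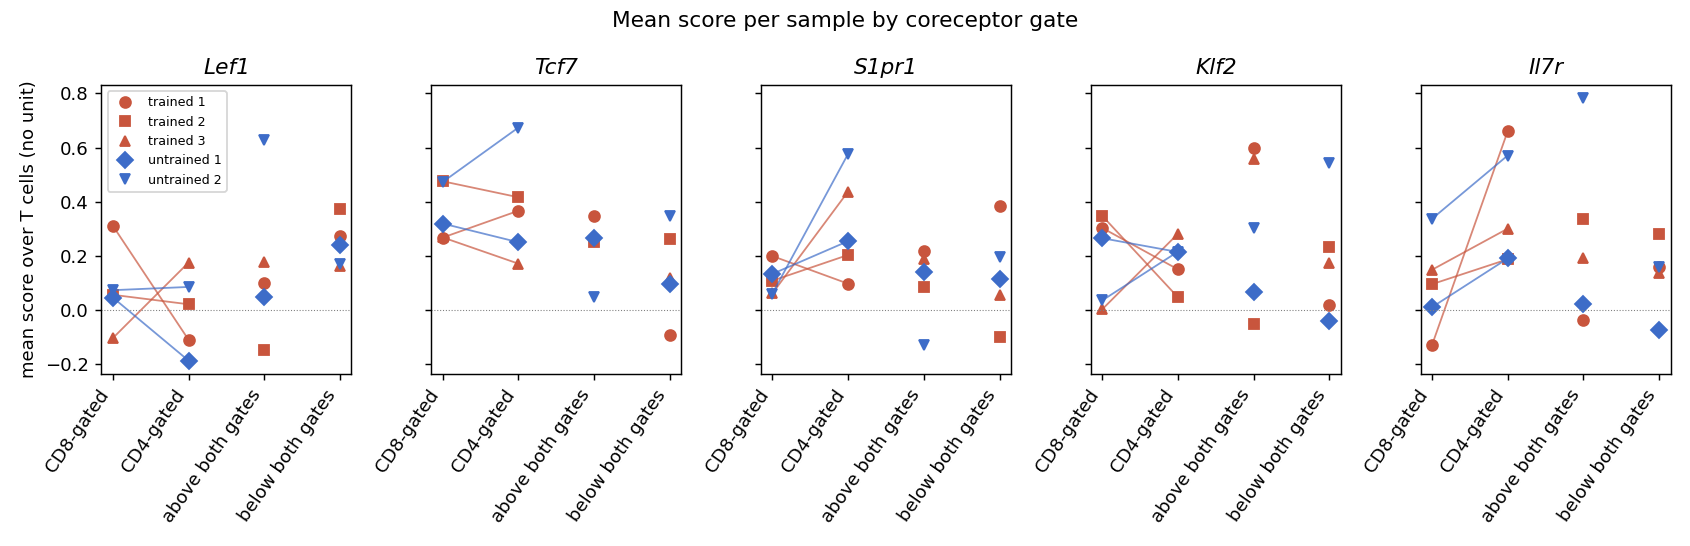
Each point is the mean score (no unit) of a gene over the T cells of 1 sample in 1 gate, and lines join both gates within a sample. For Il7r all 5 lines run from a lower CD8-gated to a higher CD4-gated value, for S1pr1 4 of 5 do.

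Of the 5 genes 0 passed between the gates, against 11 of all 2923 genes (0.376%), which were all higher in CD8-gated cells. At an unadjusted p below 0.05 there were 2 of the 5 (Il7r and S1pr1) and 418 of all (14.3%). The called genes included Nkg7, a cytotoxic granule gene (0.725 ± 0.088, SE, adjusted p = 0.00401 by limma), Ly6c2, a surface antigen of memory CD8 T cells (0.568 ± 0.082, SE, adjusted p = 0.00911), and Ctsw, the cathepsin of cytotoxic lymphocytes (0.502 ± 0.073, SE, adjusted p = 0.00911). Leaving out trained sample 3 gave 0 such genes, trained sample 2 gave 1 and untrained sample 1 gave 6.

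Of the genes around the 5, residency and effector counterparts had 2 of 17 called, Nkg7 and the chemokine gene Ccl5 (0.865 ± 0.169, SE, adjusted p = 0.0491 by limma), both higher in CD8-gated cells. The resting surface list had 1 of 10 called, Ly6c2. None was called among 10 of naive and memory transcription, 11 of egress and 12 of interleukin 7 signalling, with median differences of 0.013, -0.087 and -0.026 against -0.014 over all genes. In the interleukin 7 list the survival gene Bcl2 had 0.304 ± 0.079 (SE, adjusted p = 0.098 by limma), higher in CD8-gated cells without being called. Il2rb, the receptor chain for interleukins 2 and 15, had 0.291 ± 0.078 (SE, adjusted p = 0.107 by limma). Socs3 of the same list went the other way, at -0.212 ± 0.085 (SE, adjusted p = 0.291 by limma). Of the 12 genes of that list, 5 were higher in CD8-gated cells. Gata3, a transcription factor of T cell development and type 2 helper cells, had -0.282 ± 0.088 (SE, adjusted p = 0.17 by limma). Ribosomal protein genes averaged 0.423 to 0.878 in CD8-gated cells and 0.228 to 0.378 in CD4-gated cells, and their part in the differences was not tested.

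T cells outside both gates were compared by value alone. Lef1 averaged 0.162 to 0.375 over samples in cells below both gates (mean 0.244 ± 0.087, SD, n = 5), and its values there overlapped with those of CD8-gated cells and of CD4-gated cells. Tcf7 averaged 0.145 ± 0.169 in cells below both gates and 0.237 ± 0.112 in cells above both (SD, n = 5 each). In these groups single samples held as few as 2 cells, and the differences were not tested.

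Training was then compared within each gate. In CD8-gated cells 0 of 2926 genes passed limma, and 137 (4.68%) had an unadjusted p below 0.05. In CD4-gated cells 0 passed and 73 (2.49%) had an unadjusted p below 0.05. None of the 5 genes was in either set, and their groups overlapped in both gates, as for all but 18.6% and 15.3% of genes. In CD8-gated cells the widest distance among the 5 was that of Il7r, 0.038 ± 0.148 in trained samples (SD, n = 3) and 0.174 ± 0.230 in untrained samples (SD, n = 2). The limma interval of that difference was -0.395 to 0.123, with an adjusted p of 0.874. In CD4-gated cells it was that of S1pr1, 0.246 ± 0.174 in trained samples (SD, n = 3) and 0.416 ± 0.228 in untrained samples (SD, n = 2), with a limma interval of -0.466 to 0.127 and an adjusted p of 0.966. That S1pr1 difference, -0.169, was -0.330 without untrained sample 1 (adjusted p = 0.189 in limma) and -0.008 without untrained sample 2. The training difference in CD8-gated cells minus that in CD4-gated cells was tested as an interaction. It was 0.196 ± 0.174 for S1pr1 (SE, adjusted p = 0.921) and -0.137 ± 0.185 for Il7r (SE, adjusted p = 0.955) by limma. Of 2923 genes 0 passed it, 135 (4.62%) had an unadjusted p below 0.05 with none of the 5 among them, and the trained and untrained values of that difference overlapped for all 5 genes, as for all but 16.5% of genes. Around the 5 genes, Il2rg had -0.454 ± 0.156 for training in CD8-gated cells (SE, adjusted p = 0.867 by limma) and an interaction of -0.386 ± 0.160 (SE, adjusted p = 0.879). Il2rb went the other way in CD8-gated cells, at 0.203 ± 0.093 (SE, adjusted p = 0.867 by limma). Of the 12 measured genes of interleukin 7 signalling and survival, 9 were higher in trained samples there, with a median difference of 0.042, and 0 passed. Without untrained sample 1 the counts became 169 genes in CD8-gated cells, 101 in CD4-gated cells and 161 for the interaction, with none of the 5 among them.

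Single T cells gave a further view of how the genes went together. Pearson's r was taken across the T cells of each sample and averaged over the 5 samples, and it is a description, with cells of a sample sharing its sort and library. The pair S1pr1 and Klf2 had the highest mean of the 10 pairs, 0.31. In trained samples r was 0.40, 0.32 and 0.28 over 37, 70 and 90 cells, and in untrained samples 0.08 and 0.47 over 78 and 70 cells. It was above 0 in each sample and close to 0 in untrained sample 1. Of 4279275 pairs of genes 0.06% reached this mean, against a median pair of 0.019 and a 95th percentile of 0.14. These pairs include genes of any SD. By sample, the SD between T cells was above that of 80.9% to 93.7% of genes for S1pr1 and of 65.7% to 99.7% for Klf2. Pairs of genes with like SD were not compared. With each cell's mean score over all genes subtracted, the mean r was 0.30. Leaving out 1 sample gave 0.27 to 0.37.

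Among all genes, Klf2 was the one most like S1pr1 across T cells, and S1pr1 the one most like Klf2. For this pair the share of T cells with S1pr1 above 0 describes the same scores of the same cells and adds no separate support. In trained samples it was 69.6%, 48.5% and 48.0% among cells with Klf2 above 0, against 35.7%, 35.1% and 37.5% among the other T cells. In untrained samples it was 65.0% and 65.2% among cells with Klf2 above 0, against 52.6% and 21.3% among the other T cells. The share was higher beside Klf2 in all 5 samples, and how often this holds over all pairs of genes was not counted. The pair had a mean r of 0.40 in CD8-gated cells, above 0 in 5 of 5 samples, and 0.19 in CD4-gated cells, above 0 in 3 of 5. The difference between gates was not tested.

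**Figure D4:**
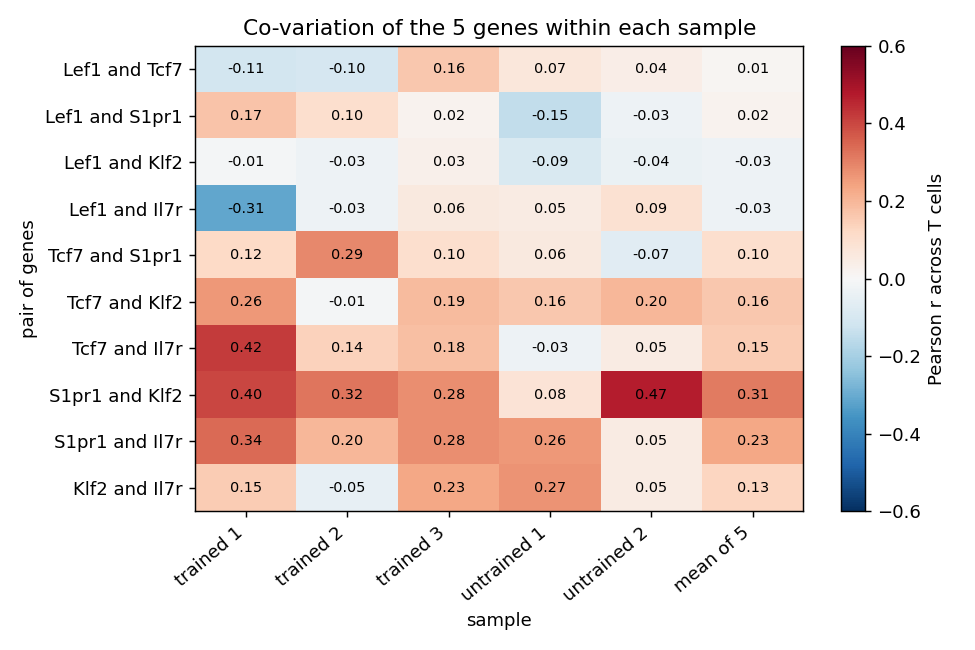
Each tile is Pearson's r across the T cells of 1 sample for 1 pair of genes, with the mean of the 5 samples in the last column. S1pr1 with Klf2 and S1pr1 with Il7r are above 0 in every sample, and the pairs with Lef1 have means from -0.03 to 0.02.

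S1pr1 and Il7r came next, with r of 0.34, 0.20 and 0.28 in trained samples and 0.26 and 0.05 in untrained samples (mean 0.23, reached by 0.38% of gene pairs). The mean was 0.30 in CD8-gated cells and 0.11 in CD4-gated cells. Tcf7 had mean r of 0.16 with Klf2 (reached by 2.83% of gene pairs), 0.15 with Il7r (3.75%) and 0.10 with S1pr1 (13.37%), each above 0 in 4 of 5 samples. Klf2 with Il7r had 0.13 (6.16%), also above 0 in 4 of 5. In sparse single-cell data such low values are no finding.

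The order of the pairs was another one in CD4-gated cells. There Tcf7 had mean r of 0.33 with Klf2 and 0.29 with Il7r, and Klf2 had 0.29 with Il7r, each above 0 in 5 of 5 samples and above the values of the S1pr1 pairs. In CD8-gated cells these 3 pairs had -0.01, 0.06 and 0.17. Each value within a gate rests on 11 to 29 cells per sample, and the difference between gates was not tested.

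Lef1 had mean r of 0.01 with Tcf7, 0.02 with S1pr1, -0.03 with Klf2 and -0.03 with Il7r over all T cells. For the pair of HMG-box factors it was 0.09 in CD8-gated cells (above 0 in 4 of 5 samples) and 0.12 in CD4-gated cells (3 of 5). It was 0.09 without T cells scoring above 0 for myeloid markers and 0.15 over all sorted cells.

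Values at the top of a ranking over all mouse genes are high partly by selection, and no chance level was computed for them. Other genes most like each of the 5 were ranked by the same mean r. For Lef1 they were Numa1 (0.27), Cd7 (0.24), Satb1 (0.23), Nsg2 (0.22) and Eef1b2 (0.22), where Satb1 is a chromatin organiser of T cells and Cd7 a T cell surface protein. For Tcf7 they were Mical1 (0.29), Mbtps1 (0.26), Sumo2 (0.24), Paics (0.24) and Htatsf1 (0.24). After Klf2 those of S1pr1 were Rnpepl1 (0.26), Rheb (0.26), Elovl5 (0.26) and Gpx1 (0.24). After S1pr1 those of Klf2 were Gak (0.23), Gmfb (0.23), Actn1 (0.22) and Guk1 (0.21). For Il7r they were Hvcn1 (0.26), Madd (0.26), S1pr1 (0.23), Ets1 (0.22) and Tsc2 (0.22), where Ets1 is a transcription factor of resting lymphocytes.

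Against the 17 residency and effector counterparts, the lowest mean r of Tcf7 (-0.15), S1pr1 (-0.15) and Klf2 (-0.13) was each with Cxcr6, a chemokine receptor of tissue-resident T cells. That of Il7r was with Nkg7 (-0.17) and that of Lef1 with S100a6 (-0.11). The highest was with Eomes for Lef1 (0.16), Ahnak for Tcf7 (0.08) and Klf2 (0.11), Rgs1 for S1pr1 (0.06) and Icos for Il7r (0.11). Of the 17 genes, 10 had a mean r above 0 with Lef1, 7 with Tcf7, 5 with S1pr1, 6 with Klf2 and 6 with Il7r. Medians over the list were 0.01 for Lef1, -0.01 for Tcf7, -0.04 for S1pr1, -0.03 for Klf2 and -0.01 for Il7r, against 0.019 over all pairs of genes. These are weak values, given as a description.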

How the data were processed

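CD3+ brain T cells were profiled by SORT-seq in 3 trained and 2 untrained samples. Reads were processed with Cell Ranger, per the submitters' processing notes. For the build, the filters, the normalisation and any integration, the sources used here give nothing. The authors deposited signed scores of 2967 rows by 692 cells, with 0 values exactly equal to a whole number, so depth is unknown. Cells were assigned to samples by the number in their names, as the labels explain. A second table of 384 columns, equal within 5.0e-10 to part of the first, was not used.

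Mean scores per sample and class entered limma 3.58.1 under R 4.3.3. P-values were adjusted by Benjamini-Hochberg over every mouse gene, at 0.05. Spike-ins were left out, and the gates were compared and the interaction tested with sample as a block, without Cd4, Cd8a and Cd8b1. A class needed 5 cells per sample. Shares were compared by exact permutation (Python 3.11.15, numpy 2.4.6, scipy 1.17.1, pandas 2.3.3), and figures were drawn with matplotlib 3.10.9. The scripts were tested on simulated data. Doublets were not called.

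Named genes were the 5 genes, up to 3 genes with the smallest p per pathway list and comparison, up to 3 past the threshold and the 5 most alike by r, of which a part of the list genes is given. The 5 genes and the lists were chosen with earlier results of these data known. Alternatives were no T cell gate, marker or coreceptor thresholds of 0.25, scaling by SD, subtracting the cell mean, weights and leaving out samples. The setting without T cells scoring above 0 for myeloid markers was added after the data were seen. Some genes of the lists are not reported here.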

Additional observations from a re-analysis of the deposited data

Results flagged for a closer look

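The Il7r difference between CD8-gated and CD4-gated cells was -0.790 in trained sample 1, against -0.091 to -0.234 in the other 4 samples, a distance from the others above Dixon's 95% limit for 5 values. That sample had 13 CD8-gated and 11 CD4-gated cells, the fewest of the 5. Of 15 groups of 5 values tested 1 was set apart in this way, and chance sets apart about 1 in 20 groups.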

How the results depend on the processing

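None of the 5 genes passed the threshold in any setting tried. Of 276 values under settings other than leaving out a sample, 231 were counted as the same, 12 as moved and 33 as turned in sign. A difference was the same if it kept its direction and side of the threshold. A count of genes was the same if equal or close. A mean r was the same if it changed by less than the SD between samples, whatever its sign. Small sign changes of r are therefore not among the 33. The cause was not tested. The differences that turned sign were all from values without a call. No paired analysis was possible because the samples were numbered in order within each group, and nothing in the labels ties a trained to an untrained sample of the same number by animal, batch or day. The depth is unknown, 2 untrained samples limit every comparison of training, and the CD8-gated and CD4-gated classes held as few as 11 cells per sample.

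The number of genes past the threshold between CD8-gated and CD4-gated cells, 11 as reported, was 5 with no T cell gate, 35 with a marker threshold of 0.25, 32 with a coreceptor gate of 0.25, 24 with scores divided by their SD, 39 weighted by cells and 24 without myeloid-marker-positive cells. Leaving out each sample gave 0 to 16 genes there, 0 to 145 for training in T cells, 0 to 169 in CD8-gated cells, 0 to 101 in CD4-gated cells and 0 to 161 for the interaction. The high counts for training and the interaction were all without untrained sample 1, where the lone untrained sample is assumed to vary like the trained ones.

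For training in T cells with no T cell gate, Lef1 was -0.003, Tcf7 0.040, Klf2 0.042 and Il7r 0.042. Lef1 was -0.030 with a marker threshold of 0.25 and -0.002 without myeloid-marker-positive cells. Klf2 was 0.062 with scores divided by their SD, 0.013 with the cell mean subtracted and 0.034 without myeloid-marker-positive cells, and Il7r was 0.021 with scores divided by their SD. Without 1 sample the ranges were -0.048 to 0.098 for Lef1, -0.155 to 0.038 for Tcf7, -0.084 to 0.078 for Klf2 and -0.185 to 0.128 for Il7r.

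For training in CD8-gated cells, Tcf7 was 0.091 and Il7r 0.063 with no T cell gate, and S1pr1 was -0.056 and Klf2 -0.035 with a marker threshold of 0.25. Lef1 was -0.054 and S1pr1 -0.030 with a coreceptor gate of 0.25, and Lef1 was -0.021 weighted by cells. Ranges without 1 sample were -0.083 to 0.124 for Lef1, -0.135 to 0.018 for Tcf7, -0.012 to 0.063 for S1pr1, -0.047 to 0.183 for Klf2 and -0.299 to 0.027 for Il7r. For training in CD4-gated cells, Il7r was -0.051 with a marker threshold of 0.25, -0.002 with a coreceptor gate of 0.25 and -0.036 weighted by cells, and Klf2 was 0.028 without myeloid-marker-positive cells. There the ranges without 1 sample were -0.057 to 0.215 for Lef1, -0.356 to 0.067 for Tcf7, -0.116 to 0.001 for Klf2 and -0.189 to 0.192 for Il7r.

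Between CD8-gated and CD4-gated cells, Klf2 was -0.030 with no T cell gate, -0.019 with a marker threshold of 0.25 and -0.010 without myeloid-marker-positive cells, and Tcf7 was 0.009 with scores divided by their SD and 0.003 weighted by cells. The ranges without 1 sample were -0.006 to 0.169 for Lef1, -0.043 to 0.032 for Tcf7 and -0.064 to 0.082 for Klf2. For the interaction, Lef1 was 0.024 with no T cell gate, 0.078 with a marker threshold of 0.25 and 0.009 without myeloid-marker-positive cells, Il7r was 0.059 with no T cell gate and Tcf7 was -0.097 with a coreceptor gate of 0.25. Its ranges without 1 sample were -0.232 to 0.118 for Lef1, -0.049 to 0.220 for Tcf7, -0.002 to 0.393 for S1pr1 and -0.264 to 0.086 for Il7r.

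The trained minus untrained difference in the share of T cells above 0 was 0.8 percentage points for S1pr1 with no T cell gate, and -0.4 for 3 or more genes without myeloid-marker-positive cells. Without 1 sample it ran from -5.7 to 27.4 for Lef1, from -0.9 to 31.1 for Tcf7, from -11.8 to 11.5 for S1pr1 and from -8.6 to 24.8 for 3 or more genes.

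Over all sorted cells the mean r was 0.15 for Lef1 and Tcf7, 0.06 for Lef1 and Klf2, 0.28 for Tcf7 and S1pr1, 0.31 for Tcf7 and Klf2 and 0.26 for Klf2 and Il7r, each above its value in T cells by more than the SD between samples. Without myeloid-marker-positive cells Lef1 and Klf2 had 0.02.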
